A study of Homo sapiens with 6 samples.

Results

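The Notch receptors NOTCH1, NOTCH2 and NOTCH3, the ligands JAG1, JAG2 and DLL1 and the coactivator MAML2 were followed in HN5 cells. So were HES1, HES2 and HEY1, grouped here as target genes. All were read before and after the cells acquired resistance to erlotinib. HN5 cells come from a human squamous carcinoma of the head and neck, and erlotinib blocks the kinase of EGFR, the receptor for epidermal growth factor. The members were chosen by gene symbol: every array probe that the platform annotation assigns to one of the 10 genes was read, 16 probes among the 30112 with a single symbol, for 10 of the 20046 named genes. A gene's value was taken from its probe with the highest mean over the 6 arrays. The series comprised 3 arrays of parental, erlotinib-sensitive HN5 and 3 of erlotinib-resistant HN5, all from total RNA of the same line. The resistant cells had been grown in rising erlotinib for 3 months, up to 12.5 µM, and then kept at that concentration for 6 months. All resistant arrays come from a single derived line, and the labels leave unsaid whether the drug was present at harvest. The resistant state, the drug and the time in culture cannot be told apart. The labels call the samples biological replicates without naming separate cultures. A p-value here therefore sets the difference between groups only against the spread of these samples, which can be technical in part. It says nothing about the spread between independently derived resistant lines.

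Notch signalling passes between touching cells. A Jagged or Delta ligand on one cell binds a Notch receptor on its neighbour, the receptor is cut first by an ADAM protease and then by γ-secretase, and the freed intracellular part enters the nucleus. There it joins the DNA-binding protein RBPJ and a Mastermind coactivator (MAML1, MAML2 or MAML3) to switch on genes such as those of the HES and HEY families, which encode transcriptional repressors. In stratified squamous epithelium Notch signalling is known to promote differentiation, and loss-of-function mutations of NOTCH1 are known in head and neck squamous carcinoma.

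RBPJ recognises a short core sequence, and the HES1 promoter is a textbook example of a gene with such cores close to its start. The 250 bases before the RefSeq starts of HES1 and HES2 are shown because both genes fell in the resistant cells, while only HES1 holds the core letters in this window. They were read from RefSeq promoters of GRCh38.p14 at chr3:194135898-194136147 (plus strand) for HES1 and chr1:6419920-6420169 (minus strand) for HES2, and capitals mark the core.
HES1: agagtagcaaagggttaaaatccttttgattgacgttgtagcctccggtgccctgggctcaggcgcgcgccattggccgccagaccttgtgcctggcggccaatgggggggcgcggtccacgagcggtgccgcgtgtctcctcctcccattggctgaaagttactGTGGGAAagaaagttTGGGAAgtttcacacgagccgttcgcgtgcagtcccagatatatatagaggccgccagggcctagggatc
HES2: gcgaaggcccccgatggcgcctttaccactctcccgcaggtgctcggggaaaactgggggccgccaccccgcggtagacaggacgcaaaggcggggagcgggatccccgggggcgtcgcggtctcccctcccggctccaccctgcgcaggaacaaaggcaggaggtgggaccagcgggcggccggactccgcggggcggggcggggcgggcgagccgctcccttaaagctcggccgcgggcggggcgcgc
The letters searched on both strands were TGGGAA and the longer GTGGGAA, which contains the shorter. In HES1 the longer form lies at -85 to -79 and a further TGGGAA at -70 to -65, counted back from the start. Both are on the gene's own strand. Only exact matches to these letters were marked, and variant forms of the core were not searched. Whether the marked stretches are the known RBPJ sites of HES1 was not tested. Of the 8 members found in the promoter table, HES1 was the 1 with the core. Over all 27305 promoters of this length, 21.1% held TGGGAA and 5.46% held GTGGGAA. A match describes the letters in the window and says nothing about binding in these cells.

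Expression is given as the authors' normalized log2 signal. The background limit, set on each array at 3 SD above the most frequent value, was 6.996 to 6.997, and brighter probes are called above background. Of the 10 members 9 were bright enough to be tested, and of these 6 fell, 2 rose and 1 did not pass. A call means an adjusted p under 0.05 (limma, Benjamini-Hochberg over all 11065 genes tested). Calls were frequent in this comparison: 54% of all tested genes passed, 26.6% as rises and 27.5% as falls. The median difference, resistant minus parental, was -0.73 over the 9 tested members and -0.0068 over all tested genes. NOTCH3 entered the test through the parental arrays alone, so its fall follows in part from the filter, and these counts are a description of the tested members. The groups did not overlap for 8 of the 9, against 59.9% of all tested genes.

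**Figure D1:**
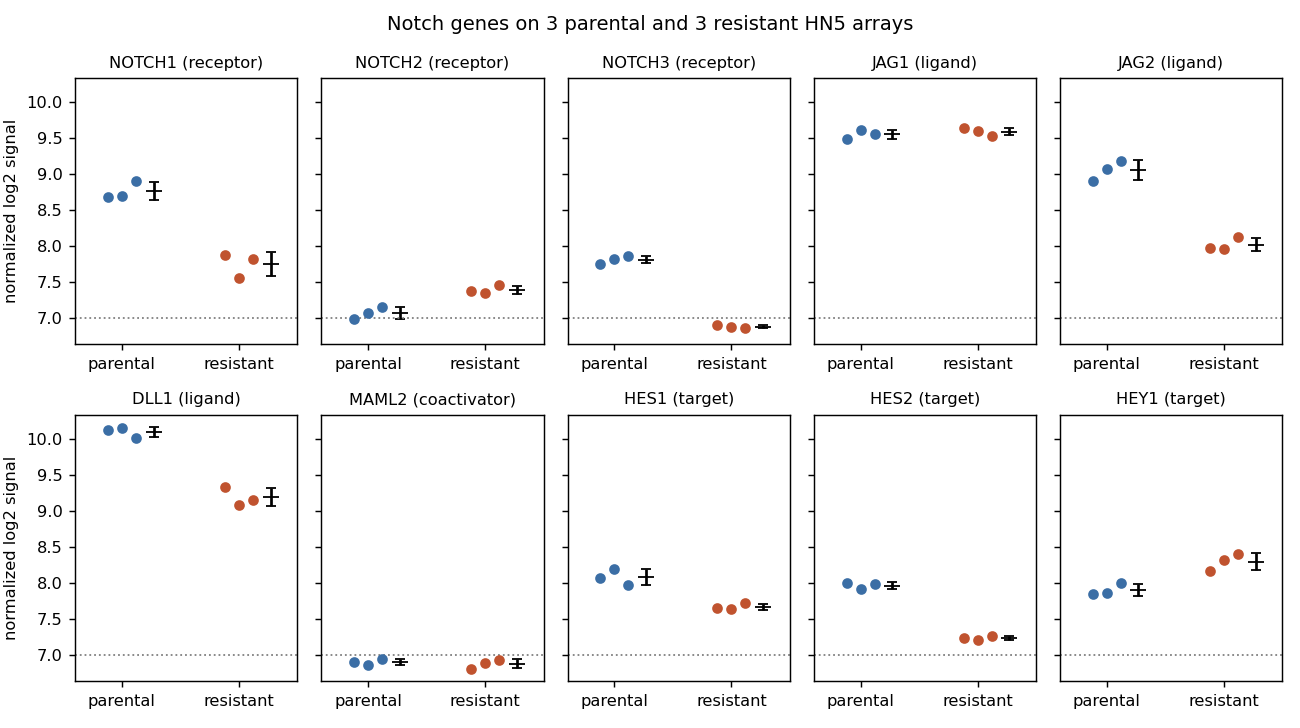
Normalized log2 signal of the 10 Notch genes on each array (points; blue parental, red resistant), with the group mean and SD (n = 3) beside them and the background limit as a dotted line. NOTCH1, NOTCH3, JAG2, DLL1, HES1 and HES2 are lower on every resistant array, NOTCH2 and HEY1 are higher, JAG1 overlaps and MAML2 lies under the limit throughout.

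The receptors went in both directions. NOTCH1, the receptor best known for its part in keratinocyte differentiation, read 8.69, 8.70 and 8.91 on the parental arrays and 7.88, 7.56 and 7.82 on the resistant arrays. All resistant arrays lay below all parental arrays, with 0.81 between the nearest values. The mean fell from 8.77 ± 0.124 to 7.76 ± 0.170 (SD, n = 3 each), a 2.01-fold fall (log2 difference -1.01, SE 0.0853, limma adjusted p = 3.57e-07). A larger difference in either direction was seen in 3.15% of all tested genes.

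NOTCH3, a receptor also expressed in squamous epithelium and best known from vascular smooth muscle, read 7.76, 7.82 and 7.86 in parental cells. It read 6.90, 6.88 and 6.86 in resistant cells, under the background limit on all 3 arrays. The transcript was thus detected in parental cells and not well above background in resistant cells. The fall was at least 1.76-fold (measured log2 difference -0.93, from 7.81 ± 0.0498 to 6.88 ± 0.0221). Its test (SE 0.0554, limma adjusted p = 1.07e-08) set parental signal against background. NOTCH3 entered the test through the parental arrays alone, so this p adds no support.

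NOTCH2, which signals through the same nuclear partners, was dim and went the other way. Its brightest probe read 6.99, 7.07 and 7.16 in parental cells, the lowest of these under the limit, and 7.38, 7.35 and 7.46 in resistant cells. The groups did not overlap, but only 0.19 separated them. The rise was 0.32 on the log2 scale (7.07 ± 0.0867 to 7.40 ± 0.0567; SE 0.0621, limma adjusted p = 6.30e-04). The other 2 NOTCH2 probes were under the limit on every array, with differences of -0.02 and -0.11, and the mean of the 3 probes gave 0.06 and lost the call (adjusted p = 0.292). The rise of NOTCH2 therefore rests on 1 probe near background. The human genome also holds partial copies of this gene (NOTCH2NLA, NOTCH2NLB and NOTCH2NLC), and whether the probe also reads them was not tested.

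Among the ligands, JAG2 and DLL1 fell and JAG1 did not pass. JAG2, the second Jagged ligand, read 8.91, 9.08 and 9.19 in parental cells and 7.98, 7.97 and 8.12 in resistant cells. Every resistant array was lower, by at least 0.79. The mean fell from 9.06 ± 0.139 to 8.02 ± 0.0867, a 2.05-fold fall (log2 difference -1.04, SE 0.0740, limma adjusted p = 6.78e-08). A second JAG2 probe fell by 0.60 (SE 0.0606, limma adjusted p = 3.36e-06 over all 14762 probes, of which 51.3% passed), and the third was under the limit on all 6 arrays, so the mean of the probes gave -0.55.

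DLL1, a Delta-type ligand, read 10.12, 10.15 and 10.02 in parental cells and 9.34, 9.09 and 9.16 in resistant cells. It stayed well above background in both groups, with all resistant arrays lower. The mean fell from 10.10 ± 0.0694 to 9.20 ± 0.131, a 1.87-fold fall (log2 difference -0.90, SE 0.0708, limma adjusted p = 1.78e-07). A larger difference was seen in 4.21% of tested genes.

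JAG1, the first Jagged ligand, read 9.49, 9.61 and 9.57 in parental cells and 9.65, 9.60 and 9.54 in resistant cells, and the groups overlapped. The difference of 0.04 had a 95% interval of -0.09 to 0.17 (limma adjusted p = 0.592). That interval lies wholly above those of JAG2, -1.20 to -0.88, and DLL1, -1.05 to -0.75; a difference between these changes was not tested in a model of its own.

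**Figure D2:**
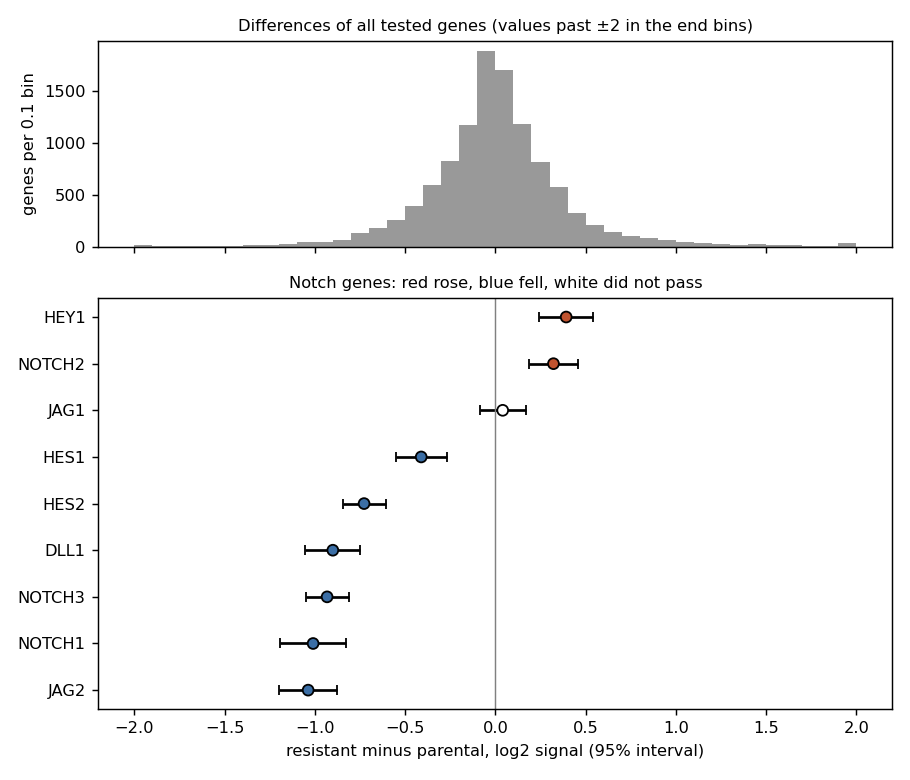
Resistant minus parental log2 signal for the 9 tested Notch genes (lower panel, with unadjusted 95% intervals) under the distribution of the same difference over all 11065 tested genes (upper panel). JAG2, NOTCH1 and DLL1 lie between -1.04 and -0.90, and the interval of JAG1 spans 0; NOTCH3 is drawn at its measured difference, although its resistant arrays were under the limit and give only a bound.

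Of the nuclear members, MAML2, the Mastermind coactivator that takes part in a fusion gene of mucoepidermoid carcinoma, was under the limit on all 6 arrays. Its single probe read 6.86 to 6.95 in parental and 6.81 to 6.93 in resistant cells, and it was not tested. Its level in HN5 is known here only as not well above background.

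The target genes also split. HES1, the classical Notch-induced repressor whose promoter is printed above, read 8.07, 8.20 and 7.97 in parental cells and 7.66, 7.63 and 7.72 in resistant cells. All resistant arrays were lower, with 0.25 between the groups. The mean fell from 8.08 ± 0.113 to 7.67 ± 0.0431, a 1.33-fold fall (log2 difference -0.41, SE 0.0652, limma adjusted p = 1.29e-04). A larger difference was seen in 20.4% of tested genes, so this fall was more ordinary in size than those of NOTCH1 or JAG2.

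HES2, a less studied repressor of the same family, was grouped with the targets, and whether Notch acts on it in HN5 cells was not tested. It read 7.998, 7.91 and 7.98 in parental cells and 7.23, 7.21 and 7.27 in resistant cells. The arrays of each group lay close together and far from the other group. The mean fell from 7.96 ± 0.0462 to 7.24 ± 0.0281, a 1.66-fold fall (log2 difference -0.73, SE 0.0553, limma adjusted p = 1.28e-07). Its second probe went from 7.17 to under the limit on all resistant arrays, at least 1.13-fold lower; it entered the test through the parental arrays alone and adds no support.

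HEY1, a related repressor that Notch induces in many cell types, rose. It read 7.84, 7.87 and 8.004 in parental cells and 8.17, 8.32 and 8.40 in resistant cells, without overlap. The mean went from 7.90 ± 0.0877 to 8.30 ± 0.115, a 1.31-fold rise (log2 difference 0.39, SE 0.0699, limma adjusted p = 3.35e-04). Its second probe was under the limit on all arrays but 1 and differed by 0.04, and the mean of the probes gave 0.22.

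**Figure D3:**
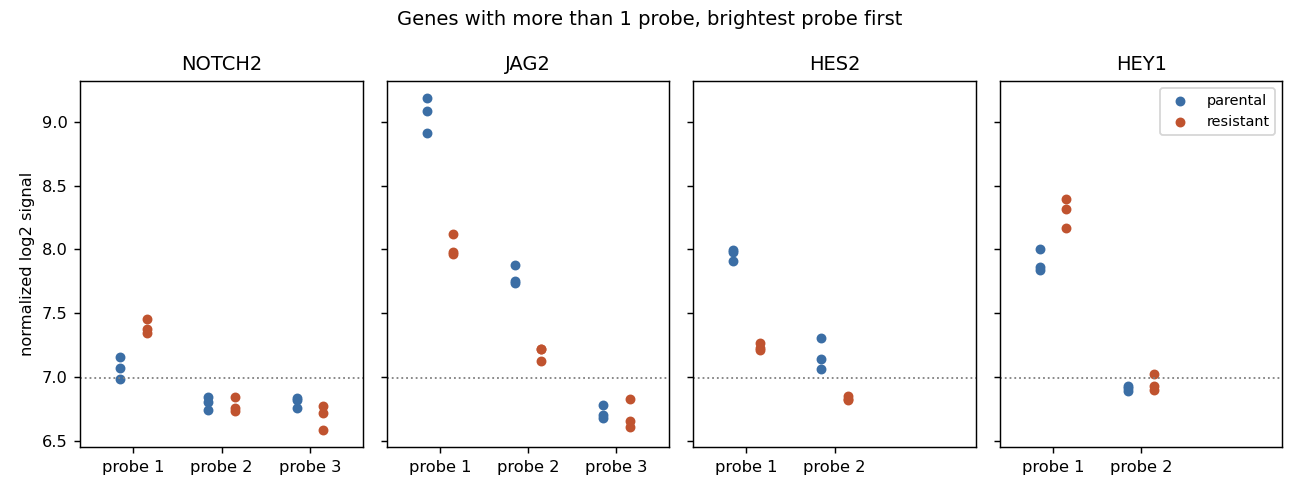
Normalized log2 signal on each array for every probe of the 4 Notch genes with more than 1 probe, brightest probe first (blue parental, red resistant; dotted line, background limit). The JAG2 and HES2 probes that were above the limit in parental cells are lower in resistant cells, whereas the differences of NOTCH2 and HEY1 are seen on 1 probe each.

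Dim values are compressed on this scale, and folds of dim genes are understated. With the background mode of each array subtracted, the folds went from 2.01 to 3.12 for NOTCH1 and from 1.66 to 3.51 for HES2, values that depend on the offset. For NOTCH2 the fold went from 1.25 to 2.46. There the lowest parental value, under the limit, was first raised to the limit, so this fold was in part set by that step. It also rests on 1 probe near background.

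A wider list of 66 genes of the pathway was set beside the members, grouped by role. Of these 48 were tested, 9 rose, 14 fell and 25 did not pass. Of those tested 47.9% were called, against 54% of all tested genes, a share near the background. The median difference was -0.04.

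The genes of enzymes that add sugars to the receptor changed in places. LFNG, the Lunatic fringe glycosyltransferase that adds a sugar to Notch and alters which ligands it answers to, read 9.61, 9.62 and 9.49 in parental and 8.56, 8.42 and 8.33 in resistant cells. Its brightest probe fell by 1.14 (SE 0.0686, limma adjusted p = 1.23e-08). Of the other LFNG probes, both near the limit, 1 differed by 0.04 and 1 was under the limit on all resistant arrays, at least 1.04-fold lower, having entered the test through the parental arrays alone. The mean of the probes gave -0.42. EOGT, which adds an O-linked sugar to the receptor's EGF-like repeats, fell by 0.61, and POGLUT1, an O-glucosyltransferase for the same repeats, by 0.44 (limma adjusted p = 6.82e-05 and 1.76e-04). Both EOGT probes and both POGLUT1 probes fell. All 5 tested genes of this small glycosylation group passed, 4 falling and 1 rising, where 54% of all tested genes passed. POFUT1, the 1 that rose, differed by 0.22 with overlapping groups (limma adjusted p = 0.0330). MFNG differed by -0.19, with 0.045 between the nearest values of the groups (limma adjusted p = 0.0251).

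On the brightest probe of each gene, non-canonical ligands showed the largest differences of the wider list; with the mean of probes this did not hold for DLK2. DNER, a neuronal transmembrane protein reported as a Notch ligand, read 7.42, 7.45 and 7.51 in parental and 8.99, 9.10 and 9.12 in resistant cells, a rise of 1.61 (SE 0.0593, limma adjusted p = 1.04e-10). DLK2, a Delta-like protein that lacks the usual Notch-binding domain, fell by 1.54 on its brightest probe (SE 0.0549, limma adjusted p = 8.31e-11), while the other tested DLK2 probe, near the limit, differed by -0.03 and the mean of the probes gave -0.43. CNTN1, a contactin described as a ligand in neural tissue, fell by 1.25 on its brighter probe (SE 0.0608, limma adjusted p = 1.43e-09), and the mean of the probes gave -0.79. The other CNTN1 probe was under the limit on all resistant arrays, at least 1.13-fold lower, and entered the test through the parental arrays alone. With the background mode subtracted the differences were 2.72 for DNER, -2.30 for DLK2 and -2.11 for CNTN1. The receptor NOTCH4 and the ligands DLL3, DLL4 and DLK1 were under the limit on all 6 arrays.

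The proteases that cut the receptor differed less. ADAM10, the main protease of the first cut, differed by -0.03 and ADAM17 by -0.07 on their brightest probes, and neither passed (limma adjusted p = 0.750 and 0.341). A second ADAM10 probe fell by 0.21 (limma adjusted p = 0.00887 over all probes), and the 3 ADAM17 probes did not pass. Among γ-secretase subunits, NCSTN fell by 0.36 and APH1A by 0.43, whereas PSEN2, a catalytic subunit, rose by 0.46 (limma adjusted p = 7.50e-05, 3.24e-04 and 3.01e-05). Of the 8 tested cleavage genes 1 rose and 2 fell, 37.5% called against 54% of all tested genes.

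Of the 12 tested genes of trafficking and turnover, 3 rose and 3 fell, 50% called against 54% of all tested genes. NUMB, an endocytic adaptor known as an inhibitor of Notch, read 9.37, 9.28 and 9.23 in parental and 9.89, 9.80 and 9.84 in resistant cells and rose by 0.55 (SE 0.0587, limma adjusted p = 3.34e-06). ITCH, a ubiquitin ligase that acts on Notch together with NUMB, rose by 0.47 (limma adjusted p = 1.35e-05). DTX2, a Deltex ubiquitin ligase, fell by 0.74 (limma adjusted p = 1.48e-07). Both NUMB probes rose and both tested DTX2 probes fell, and the mean over the 3 DTX2 probes, 1 of them under the limit, was -0.37.

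In the nucleus, RBPJ, the DNA-binding partner of every Notch receptor, rose. Its brightest probe read 8.53, 8.54 and 8.65 in parental and 9.45, 9.62 and 9.55 in resistant cells, a rise of 0.97 (SE 0.0631, limma adjusted p = 2.78e-08). The other 2 RBPJ probes were under the limit on all parental arrays and above it on all resistant arrays, at least 1.12-fold and 1.06-fold higher; they entered the test through the resistant arrays alone and add no support. The mean of the probes gave 0.48. RBPJ has pseudogenes in the human genome, and whether the probes also read them was not tested. The corepressor TLE4 rose by 0.56 on its brightest probe (limma adjusted p = 2.53e-05), while the other probe differed by 0.10 and did not pass, and the mean of the probes gave 0.33. The histone deacetylase HDAC2 fell by 0.44 (limma adjusted p = 1.83e-05), and the mean of its probes gave -0.21. Of the 15 tested nuclear genes 10 did not pass, and 33.3% were called against 54% of all tested genes.

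Other Notch targets mostly did not pass. Of 10 listed, 5 were tested and 20% of these were called, against 54% of all tested genes. The 1 that rose was BHLHE40, a repressor that also answers to hypoxia, by 0.36 (limma adjusted p = 1.46e-04). HES4 differed by 0.10 and cyclin D1 (CCND1) by 0.11 (limma adjusted p = 0.188 and 0.171). HES5, HES7, HEY2, HEYL and NRARP were under the limit on all 6 arrays. The GTGGGAA core described for HES1 was also present before the starts of HES4, at -77 to -71, and HES5, at -81 to -75, on the gene's own strand, and on the opposite strand before HEY2 and HEYL. HES5 held a second copy on the opposite strand. Of these genes only HES1 and HES4 were tested. HES1 fell and HES4 did not pass, and the difference between them was not tested. Of the 53 promoters found for the wider list, 4 held GTGGGAA and 10 held TGGGAA. Over all promoters the shares were 5.46% and 21.1%.

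**Figure D4:**
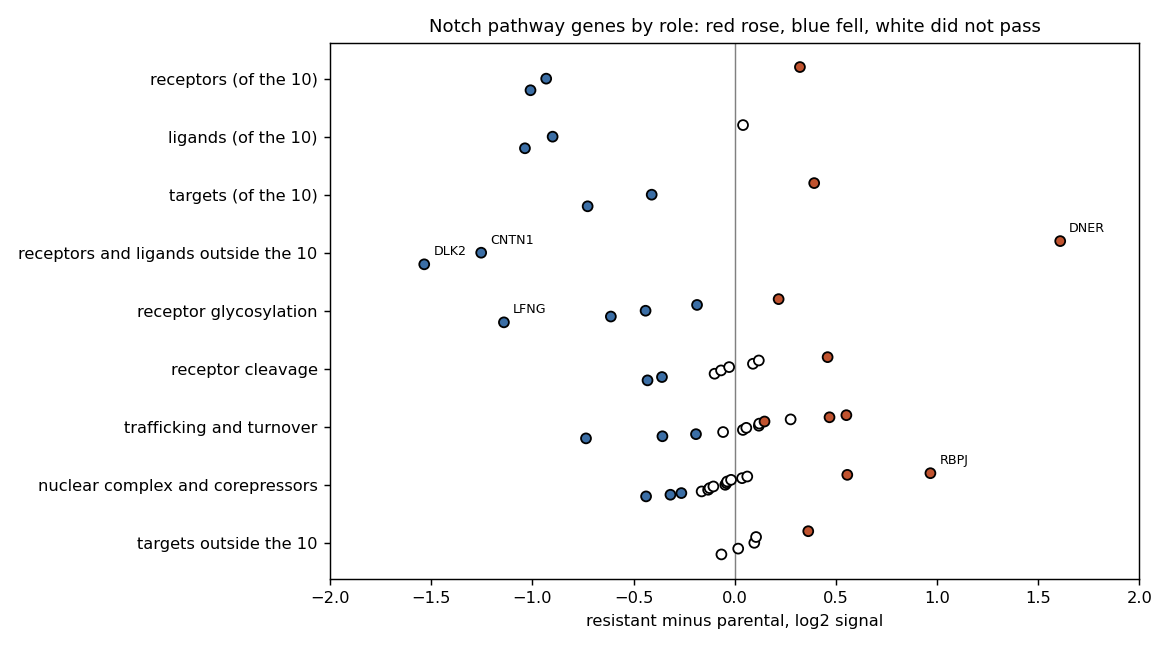
Resistant minus parental log2 signal for each tested Notch pathway gene by role (red rose, blue fell, white did not pass). The members are in the top 3 rows, and the genes named in the plot (DLK2, CNTN1, LFNG, DNER and RBPJ) are those of the wider list that differ by more than 0.8.

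Of 12 epidermal genes that Notch is known to bear on, 7 were tested, 1 rose and 2 fell, with a median difference of 0.03. Of those tested 42.9% were called, against 54% of all tested genes. The basal keratins KRT5 and KRT14, which mark the proliferating layer of squamous epithelium, fell by 1.11 and 0.53 (limma adjusted p = 4.04e-07 and 2.26e-06). KLF4, a transcription factor of the differentiating layers, rose by 0.45 on the brighter of its probes (limma adjusted p = 4.12e-04), and both rose. The integrin subunit ITGB4 showed a difference of 0.12 that missed the threshold (limma adjusted p = 0.264); without parental replicate 2 it passed as a rise of 0.21 (adjusted p = 0.0422). The differentiation keratin KRT1 was under the limit on all arrays.

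The arrays carried epithelial markers, of which KRT5 and KRT14 are those of squamous epithelium. Of 8 listed, 5 had a named probe. These were KRT5, KRT14, CDH1, EPCAM and DSP, above the limit on all 6 arrays, although each fell in resistant cells. Their summed linear signal was 20848 to 22331 in parental and 12612 to 13651 in resistant cells. Markers of other cell types moved between the same groups. Of 8 fibroblast markers, 1 was above the limit on all parental arrays and 4 on all resistant arrays, the sum went from between 991 and 1010 to between 1915 and 1933, and DCN and LUM, at background on every parental array, were at least 5.46-fold and 2.34-fold higher in resistant cells. THY1 and PDGFRB were at background throughout. The sum of 8 leukocyte markers went from between 1983 and 2123 to between 3595 and 3931, CD68 alone rising by 1.38 on the log2 scale (limma adjusted p = 3.26e-09), with PTPRC, CD3E, CD2 and LYZ at background throughout. The sum of 7 endothelial markers was 777 to 782 and then 821 to 827, with PECAM1 above the limit in resistant cells and the other 6 at background on all arrays. These sums include the background signal of each probe. All 6 arrays came from total RNA of the HN5 line. A marker's level alone therefore does not show that another cell type was present. The part of these markers in the differences of the Notch genes was not tested. In such bulk RNA a change in every cell and a change in the share of cells expressing a gene cannot be told apart.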

How the data were processed

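Total RNA of 3 parental and 3 resistant samples was extracted with Trizol and RNeasy columns and biotin-labelled for Illumina arrays, per the labels' protocols. The authors deposited normalized log2 values for 47230 probes per array; neither labels nor headers used here state the background treatment, the normalization method or the software. Base 2 was taken from the range, 6.51 to 13.76. The sorted values of the 6 arrays differed by at most 0.00434, as after quantile normalization, so each value is relative to the other probes of its array. The 12 signal and detection columns of a second, non-normalized table were left out, since their headings match no sample label.

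Probes were named through the platform annotation (30112 with 1 symbol, 8 with several, 17110 not listed). The background limit was the mode plus 3 SD of the values below it, between 38.9% and 39.1% of probes passing per array. Probes above it on at least 3 arrays were tested with limma 3.58.1 in R 4.3.3 (lmFit, eBayes; 4 residual and 9.1 prior degrees of freedom), Benjamini-Hochberg over 11065 genes, or over 14762 probes where a single probe is named. The number of arrays limits the precision. An exact permutation test of 3 against 3 cannot go below 0.1 and was not used.

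The members and lists were chosen with earlier results of these data known. The genes named are the members, the 3 genes of each role group (4 of the epidermal list) with the smallest adjusted p, and RBPJ, ADAM10, ADAM17 and NCSTN (1 other gene of this rule is not reported here); genes named as under the limit were added after their values were seen. Of the wider list, 62 of 66 genes had a named probe. Promoters come from RefSeq (GRCh38.p14), matched by symbol, with 8 of 10 members found. The alternatives were cyclic loess, subtraction of the background mode, no filter, a strict filter, the mean of probes, a moderation trend, array weights, a replicate block and each array left out in turn.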

Additional observations from a re-analysis of the deposited data

How the results depend on the processing

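The directions of the 9 tested members held in every alternative that could be run, and their calls in all but 1. With the mean of its probes, NOTCH2 gave 0.064 (limma adjusted p = 0.292) and left 1 rising member. The strict filter, above the limit on all 6 arrays, also left 1, because NOTCH2 was then not tested; NOTCH3 was not tested there either. Without 1 array at a time, the epidermal genes that rose numbered 1 to 2, with 2 without parental replicate 2. ADAM10, which did not pass, lay between -0.10 and 0.011 with 1 array left out and changed sign without parental replicate 2 or 3. ADAM17 changed sign to 0.0061 with the mean of its probes. The counts over all genes stayed within 2557 to 3088 rises and 2735 to 3090 falls. Same-numbered arrays deviated together with r = 0.15, 0.0030 and 0.09, and parental replicate 2 correlated best with resistant replicate 1, so the numbers were not taken as pairs; the replicate block gave 2995 rises and 3090 falls, and 2 rising and 6 falling members. Values under the limit have no order, which limits MAML2, NOTCH3 in resistant cells and NOTCH2.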
